A study of Mus musculus with 8 samples.

Results

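Fkbp5 and 9 other genes of the chaperone cycle that prepares steroid receptors for hormone, namely Fkbp4, Hsp90aa1, Hsp90ab1, Ptges3, Stip1, Hspa8, Bag1, Stub1 and Ppid, were followed across 4 treatments of 1 mouse mammary cell line. The genes were chosen by name, with earlier results of these data known, so their counts of calls are not an independent test. Every probe set (a group of short probes on the array summed up as 1 value) whose annotation gives a single gene symbol was kept. That gave 19 probe sets of 7 of the 10 genes, out of 45037 probe sets tested: 3 for Fkbp5, 3 for Fkbp4, 5 for Hsp90aa1, 4 for Hspa8, 2 for Stub1 and 1 each for Stip1 and Bag1. Ptges3 and Ppid are named only on probe sets that carry a second symbol as well (2 and 1 probe sets), and 0 probe sets used here carry the symbol Hsp90ab1, so these 3 genes are not analysed here.

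The cells were the 7438 line, which carries a green fluorescent glucocorticoid receptor (GFP-GR) and a cherry fluorescent estrogen receptor (Cherry-ER), both behind a promoter that tetracycline keeps silent. In every group, untreated included, tetracycline was withdrawn 24 hours before hormone to switch on both receptors, and the cells had been in serum stripped of steroids with charcoal and dextran (10%) for 48 hours. The 4 groups, of 2 arrays each, were untreated cells, cells with dexamethasone, a synthetic glucocorticoid, at 100 nM (Dex), cells with estradiol at 100 nM (E2), and cells with both (Dex+E2), with hormone present for 2 hours. Whether the 2 arrays of a group stem from different cultures is not in the labels, and the spread behind each p-value may therefore be a technical one. For E2 replicate 2 and Dex+E2 replicate 1 the description field speaks of a chromatin experiment, but title and treatment place both in the groups used here.

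A steroid receptor without hormone is held by chaperones. The constitutive Hsp70, encoded by Hspa8, binds it first, and the adaptor Hop (Stip1) hands it to Hsp90, of which Hsp90aa1 and Hsp90ab1 encode the cytosolic forms. The small co-chaperone p23 (Ptges3) then locks the complex, and an immunophilin docks on Hsp90: FKBP51 (Fkbp5), which lowers the hormone affinity of the glucocorticoid receptor, FKBP52 (Fkbp4), which favours hormone binding and transport to the nucleus, or cyclophilin 40 (Ppid). Bag1 is a nucleotide exchange factor that makes Hsp70 release its client, and Stub1 encodes CHIP, a ubiquitin ligase that sends chaperone-bound clients to the proteasome. Fkbp5 is a textbook glucocorticoid target, which closes a short feedback loop on the receptor, and its known receptor binding sites lie largely in introns rather than at the start of the gene.

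The sequences around the start sites of the FKBP51 and FKBP52 genes are shown because these 2 related immunophilins gave different values in Dex-treated cells, and that of Cdc37l1 because it was the other Hsp90 co-factor gene with a difference past the threshold (values below). Each runs from 250 bases before to 50 bases after the annotated start (RefSeq, mouse build GRCm38.p6), 5′ to 3′ on the strand of the gene, which is the minus strand for Fkbp5 and Fkbp4 and the plus strand for Cdc37l1. The positions are chr17:28486100-28486399 for Fkbp5, chr6:128438607-128438906 for Fkbp4 and chr19:28990117-28990416 for Cdc37l1. Capitals mark the CCAAT box (CCAAT), the GC box (GGGCGG), the heat shock element of 2 units (GAANNTTC) and the 6-base core site of the glucocorticoid response element (TGTTCT), each searched on both strands.
Fkbp5: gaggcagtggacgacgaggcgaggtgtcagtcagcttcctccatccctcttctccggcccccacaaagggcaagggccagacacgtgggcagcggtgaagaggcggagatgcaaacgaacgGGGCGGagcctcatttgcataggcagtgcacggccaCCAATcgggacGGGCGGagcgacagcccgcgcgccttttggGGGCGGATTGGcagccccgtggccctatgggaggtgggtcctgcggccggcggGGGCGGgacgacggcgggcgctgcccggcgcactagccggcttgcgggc
Fkbp4: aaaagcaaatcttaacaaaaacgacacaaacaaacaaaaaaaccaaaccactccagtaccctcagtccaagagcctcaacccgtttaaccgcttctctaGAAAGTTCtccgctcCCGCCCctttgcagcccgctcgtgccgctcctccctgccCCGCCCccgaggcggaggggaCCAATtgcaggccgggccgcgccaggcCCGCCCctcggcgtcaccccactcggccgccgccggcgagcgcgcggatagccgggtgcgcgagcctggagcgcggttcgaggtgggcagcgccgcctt
Cdc37l1: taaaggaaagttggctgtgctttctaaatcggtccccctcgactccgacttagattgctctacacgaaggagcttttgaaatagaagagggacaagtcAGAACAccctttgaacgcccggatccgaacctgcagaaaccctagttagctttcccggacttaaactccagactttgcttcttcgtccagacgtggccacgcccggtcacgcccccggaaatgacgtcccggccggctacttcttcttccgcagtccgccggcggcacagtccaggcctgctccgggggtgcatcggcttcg

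The Fkbp5 window held 2 CCAAT boxes and 4 GC boxes, and 0 matches to the glucocorticoid 6-base site. The Fkbp4 window held 1 CCAAT box, 3 GC boxes and 1 heat shock element of 2 units, whose letters are GAAAGTTC. In the Cdc37l1 window there was 1 glucocorticoid 6-base site, AGAACA on the strand shown. Of the 6 listed genes with such a window (Fkbp5, Fkbp4, Ptges3, Stip1, Bag1 and Stub1), 0 held the full glucocorticoid response element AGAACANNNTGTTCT, the estrogen response element GGTCANNNTGACC or the glucocorticoid 6-base site, while Fkbp4 and Stub1 held a heat shock element of 2 units. Among all 32851 windows of the same length, 37.4% held a CCAAT box, 35.7% a GC box, 19.0% the glucocorticoid 6-base site, 7.86% the heat shock element of 2 units, 0.0700% the estrogen response element and 0.00913% the full glucocorticoid response element. These are matches of letters in a short window. All 6 windows were richer in G and C than the median window (52.7%), from 56.3% for Stip1 to 73.7% for Ptges3, and Fkbp5 was at 70.7%.

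Dex+E2 replicate 2 stood apart from the other arrays, with a mean correlation of 0.9951 with them against 0.9963 to 0.9973 for the rest, and the 2 Dex+E2 arrays differed from each other by more than 0.5 log2 units on 1249 probe sets, against 92 to 305 in the other groups. The label of mammary cells was set against markers, each read on its brightest probe set, a choice that raises its rank. The ranks compare levels of different probe sets, so they are only a rough guide. Of 9 epithelial markers, 5 lay above the median probe set and 1, Krt14, above the upper quartile, while Cdh1 lay at percentile 4.11. All 6 mesenchymal markers lay above the upper quartile. Of 5 milk protein genes 0 lay above the upper quartile, and the same held for 4 immune cell and 4 endothelial or adipose markers.

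Fkbp5 rose with Dex. Its brightest probe set, 1416125_at, read 10.18 and 10.16 on the log2 scale on the untreated arrays and 11.89 and 11.70 on the Dex arrays. The second, 1448231_at, read 7.07 and 7.08 in untreated cells and 8.31 and 8.28 with Dex. Each Dex array lay above each untreated array, by at least 1.51 and 1.21 log2 units, far beyond the spread between replicates. The differences were 1.62 ± 0.114 (standard error) and 1.22 ± 0.0810 log2 units, that is 3.08-fold and 2.33-fold (limma, Benjamini-Hochberg adjusted p = 6.91e-05 and 5.79e-05), and they ranked 45 and 71 by size among the 259 probe sets higher with Dex. So 2 of the 19 probe sets of the chaperone cycle genes passed the threshold (adjusted p under 0.05), both of Fkbp5, against 0.924% of all probe sets tested. The third Fkbp5 probe set, 1447736_at, read 3.20 and 3.22 in untreated cells and 3.26 and 3.15 with Dex. It is dim, at percentile 3.26 of mean level, and did not follow the others: its correlation with 1416125_at over the 8 arrays was 0.157, against 0.976 for 1448231_at. A probe set's level can be read only against its own on other arrays. The summed log2 level of the mesenchymal markers was 64.82 to 65.00 in untreated cells, 62.78 to 63.18 with Dex, 64.46 to 64.65 with E2 and 62.72 to 63.29 with both, so it moved with Dex as Fkbp5 did, in the opposite direction. Of its 6 genes, Snai2 fell by 1.10 log2 units with Dex (limma, adjusted p = 0.000601) and Twist1 passed only with both hormones and in the mean Dex effect. The milk protein sum was 26.12 to 26.18 with Dex, below the 26.29 to 26.70 of untreated cells. With E2 it was 25.37 to 26.20, also below, and with both hormones 26.02 to 26.95. The endothelial or adipose sum was 18.20 to 18.35 with Dex, below the 18.43 to 18.91 of untreated cells. With E2 it was 18.09 to 19.13, on both sides of the untreated range, and with both 18.47 to 19.08. The epithelial sum was 50.59 to 50.75 with Dex, inside the untreated range of 50.38 to 51.13, while it was 50.04 to 50.22 with E2 and 51.00 to 51.65 with both. The immune cell sum was 18.75 to 18.92 with Dex, inside the untreated range of 18.60 to 19.10, as were the E2 arrays at 18.62 to 18.67. Of these 4 lists, 0 genes passed the threshold in any comparison. The part of these differences in the Fkbp5 result was not tested.

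**Figure D1:**
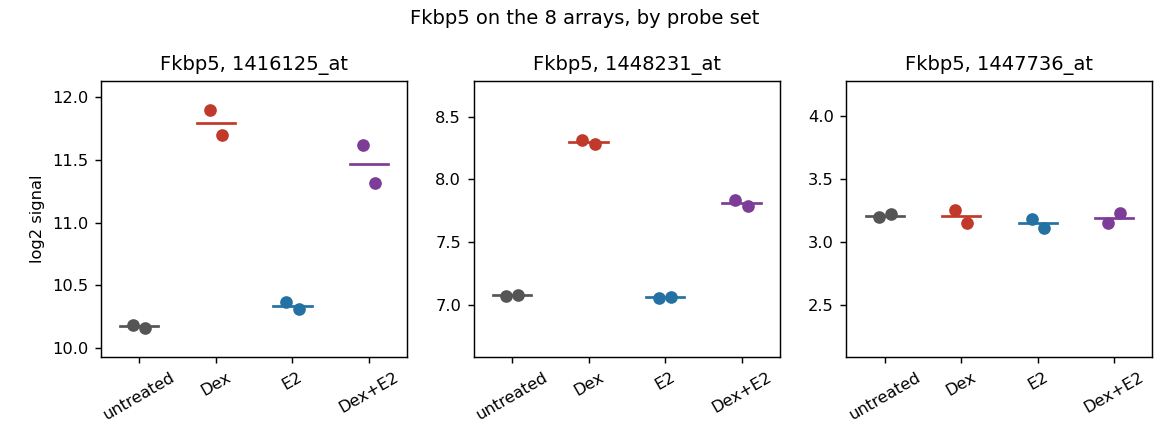
Log2 signal of the 3 Fkbp5 probe sets on each of the 8 arrays, by treatment; points are arrays, lines are means of 2 arrays, and every panel spans the same number of log2 units. On the left and middle panels both Dex arrays lie highest, Dex+E2 arrays next, and untreated and E2 arrays lowest, while the dim probe set on the right stays between 3.11 and 3.26.

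E2 alone left Fkbp5 close to its untreated level. On 1416125_at the E2 arrays read 10.36 and 10.31, both just above the untreated arrays, with a difference of 0.16 ± 0.114 and a 95% interval from -0.09 to 0.42 (limma, adjusted p = 0.952). On 1448231_at they read 7.06 and 7.06, both just below the untreated arrays, with a difference of -0.02 ± 0.0810 and an interval from -0.20 to 0.16 (adjusted p = 0.999). The 2 probe sets thus differed in sign and neither passed. In all, limma called 0 of the 19 probe sets for E2, against 0.0355% of all probe sets tested. At an unadjusted p under 0.05 there were 2 of 19, against 5.42% of all.

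With both hormones Fkbp5 rose again, but its level lay between those of untreated and Dex-treated cells. On 1416125_at the Dex+E2 arrays read 11.62 and 11.32, and on 1448231_at 7.84 and 7.79. Every Dex+E2 array was above every untreated and E2 array and below both Dex arrays on these 2 probe sets. The gap to the Dex arrays was 0.0786 log2 units on 1416125_at and 0.448 on 1448231_at. With 2 arrays a group, such separation carries little weight alone. Fkbp4 1416363_at and Hsp90aa1 1426645_at, which were not called, also had Dex+E2 and Dex arrays that did not overlap. The share over all probe sets was not counted. Against untreated the differences were 1.30 ± 0.114 and 0.74 ± 0.0810 log2 units, 2.45-fold and 1.67-fold (limma, adjusted p = 0.00039 and 0.0013), and the same 2 of 19 probe sets passed, against 0.844% of all. Against E2 alone they were 1.13 and 0.75, 2.19-fold and 1.68-fold (limma, adjusted p = 0.00281 and 0.00423), again 2 of 19 against 0.335% of all. The call against E2 depended on the arrays in the fit. With only these 2 groups fitted the adjusted p was 0.0718 and 0.0988, and without E2 replicate 1 it was 0.0563 for 1448231_at.

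The Dex+E2 level of Fkbp5 did not differ from the Dex level past the threshold. The difference was -0.33 ± 0.114 on 1416125_at (95% interval from -0.58 to -0.08; limma, adjusted p = 0.996) and -0.49 ± 0.0810 on 1448231_at (from -0.67 to -0.31; adjusted p = 0.293). Both intervals lie below 0 before adjustment. In rank of p, 1448231_at was number 16 of the 45037 probe sets in this comparison. Here 0 of 19 probe sets of these genes passed, against 0.00666% of all. At an unadjusted p under 0.05 there were 3 of 19, against 4.66% of all. The interaction is the amount by which the effect of Dex in the presence of E2 exceeds or falls short of that in its absence. It was -0.49 ± 0.161 and -0.47 ± 0.115 log2 units on the 2 probe sets (limma, adjusted p = 0.881 and 0.817). For the interaction 0 of 19 passed, against 0.00222% of all, and 3 of 19 had an unadjusted p under 0.05, against 5.46% of all. The 2 comparisons share the Dex and Dex+E2 arrays.

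Without Dex+E2 replicate 2, which stood apart, the Fkbp5 difference between Dex+E2 and Dex was -0.18 on 1416125_at and -0.46 on 1448231_at. Without Dex+E2 replicate 1, which leaves only the array that stood apart, it was -0.48 and -0.51. Neither difference passed in any other setting. The difference on 1416125_at thus moved by over 1.5 times without Dex+E2 replicate 2, and that on 1448231_at hardly moved with either array left out. Against untreated, Dex+E2 stayed past the threshold without replicate 2, at 1.45 and 0.76 (adjusted p = 0.000289 and 0.0051).

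Over both states of E2, the mean Dex effect on Fkbp5 set the 4 arrays with Dex against the 4 without. It was 1.38 ± 0.0803 log2 units on 1416125_at and 0.99 ± 0.0573 on 1448231_at (limma, adjusted p = 1.5e-05 for both), with no overlap between the arrays. Again 2 of 19 probe sets passed, against 1.37% of all. The mean E2 effect over both states of Dex was -0.08 ± 0.0803 and -0.25 ± 0.0573 (limma, adjusted p = 0.999 and 0.353). For it 0 of 19 passed, against 0.0533% of all, and 2 of 19 had an unadjusted p under 0.05, against 4.23% of all. The order of the Fkbp5 group means was the same on both probe sets for the 2 highest groups, Dex (11.80 and 8.30) above Dex+E2 (11.47 and 7.81). E2 (10.34 and 7.06) and untreated (10.17 and 7.07) changed places between them and did not differ past the threshold.

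**Figure D2:**
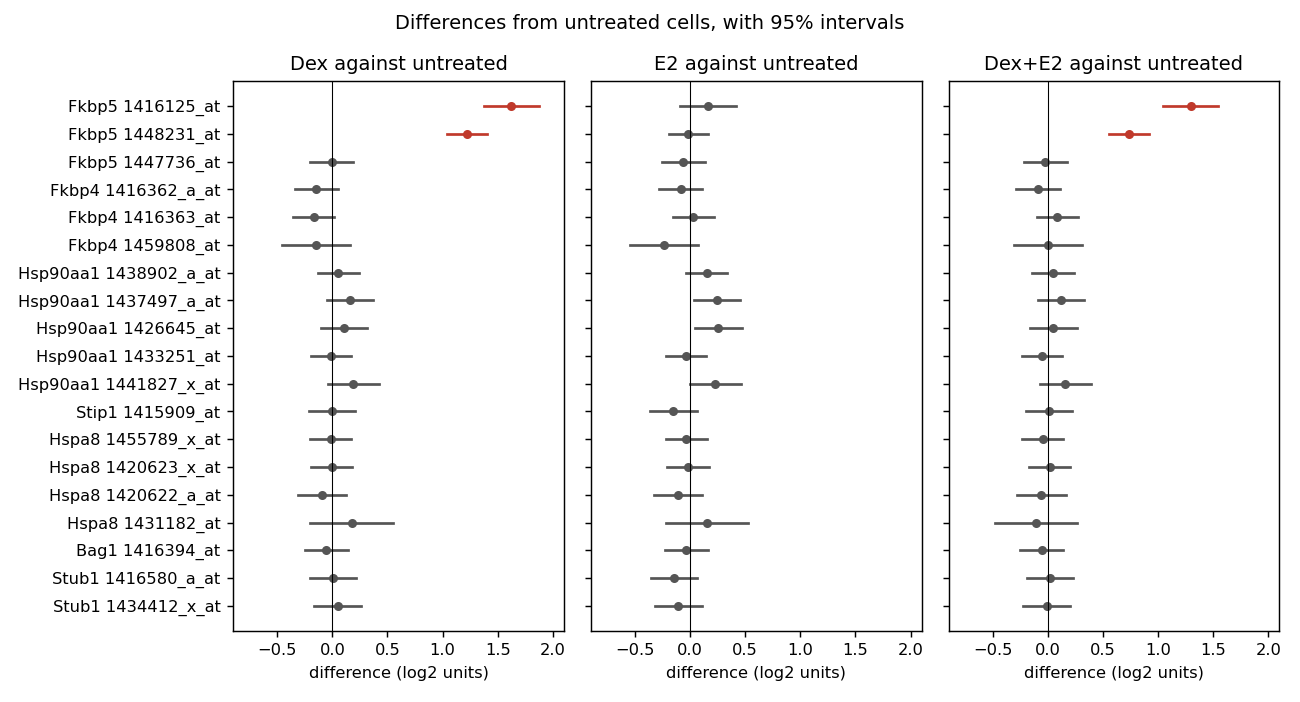
Differences from untreated cells in log2 units for the 19 probe sets, one panel per treatment, with 95% intervals from limma as lines and probe sets past the adjusted threshold in red. Only the first 2 Fkbp5 probe sets are red, at 1.62 and 1.22 with Dex and at 1.30 and 0.74 with Dex+E2; the other 17 lie between -0.24 and 0.26 in all 3 panels.

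The other 6 measured genes, with 16 probe sets, held 0 calls in limma in any of the 8 comparisons. With Dex their differences ran from -0.17 to 0.19 log2 units, 7 above 0 and 9 below, with a median of -0.0047 against 0.0014 for all probe sets tested, and 0 of the 16 had an unadjusted p under 0.05, against 5.69% of all. The outermost bounds of their 95% intervals for Dex were -0.46, for Fkbp4 1459808_at, and 0.55, for Hspa8 1431182_at. Other intervals were narrower, such as -0.20 to 0.17 for Hspa8 1455789_x_at. Over all 8 comparisons 5 of 128 tests, 3.91%, had an unadjusted p under 0.05, against 6.98% for all probe sets tested.

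Fkbp4 encodes FKBP52, the immunophilin that competes with FKBP51 for the same place on Hsp90. Its brightest probe set, 1416362_a_at, read 10.51 and 10.65 in untreated cells, 10.48 and 10.39 with Dex, 10.50 and 10.49 with E2, and 10.52 and 10.46 with both. The Dex arrays were below both untreated arrays, by 0.15 log2 units on average (-0.15 ± 0.0891; 95% interval from -0.34 to 0.05), and the groups given E2 overlapped the untreated range or lay just under it. On all 3 Fkbp4 probe sets the Dex difference was negative, -0.15, -0.17 and -0.15, and none passed (limma, smallest adjusted p = 0.958). The second probe set, 1416363_at, read 6.80 and 6.75 with Dex and 6.98 and 7.08 with Dex+E2, a difference of 0.26 ± 0.0835 that did not pass (adjusted p = 0.996); the corresponding value was 0.06 on 1416362_a_at and 0.15 on 1459808_at.

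Hsp90aa1 encodes the stress-responsive cytosolic Hsp90. Its brightest probe set, 1438902_a_at, read 13.17 and 13.23 in untreated cells, 13.23 and 13.28 with Dex, 13.33 and 13.38 with E2, and 13.30 and 13.20 with both. The E2 arrays were the highest of the 8. The next 2 probe sets by brightness, 1437497_a_at and 1426645_at, also read highest with E2, at 12.85 and 12.91 and at 12.62 and 12.83, against 12.56 and 12.71 and 12.42 and 12.51 in untreated cells. The 3 differences with E2 were 0.15, 0.24 and 0.26 log2 units and did not pass (limma, adjusted p = 0.939, 0.884 and 0.880). With both hormones the same 3 probe sets were 0.05, 0.12 and 0.05 above untreated. Of the 2 dim probe sets, 1441827_x_at was 0.23 above untreated with E2 and 1433251_at was -0.04 from it. The suffix x marks probes that match more than 1 sequence.

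**Figure D3:**
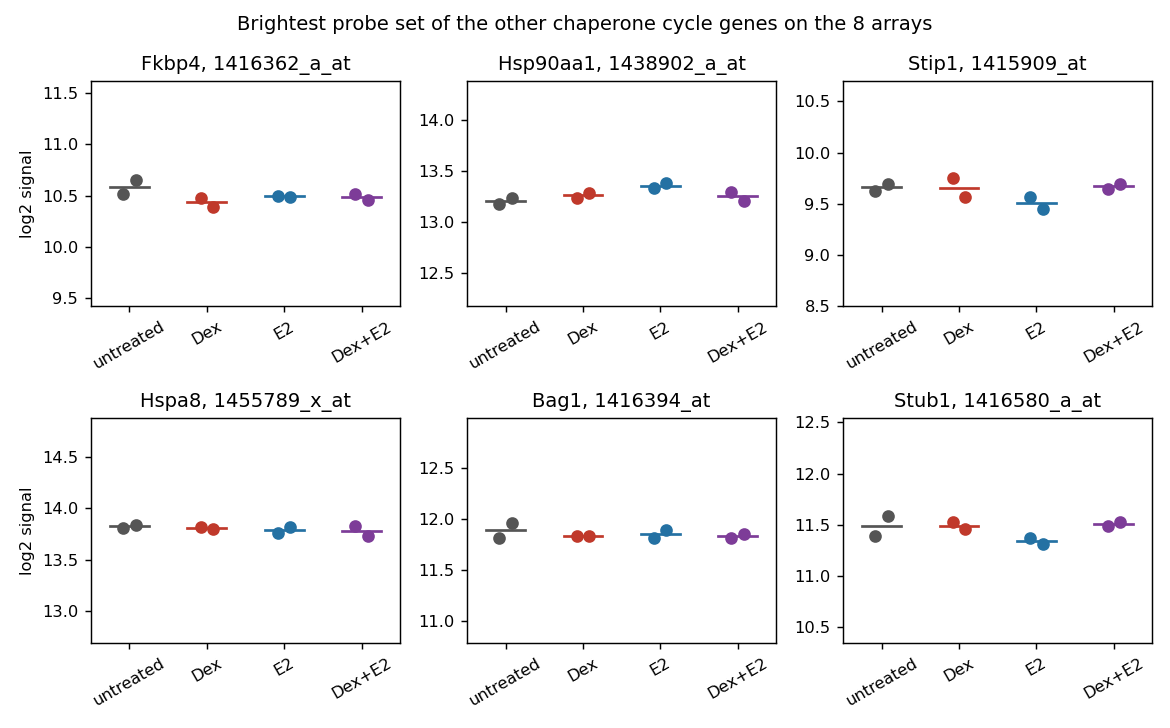
Log2 signal of the brightest probe set of Fkbp4, Hsp90aa1, Stip1, Hspa8, Bag1 and Stub1 on each of the 8 arrays, by treatment; points are arrays, lines are means of 2 arrays, and every panel spans the same number of log2 units. The Fkbp4 points lie between 10.39 and 10.65 and the Stip1 points between 9.45 and 9.75. The Dex and E2 points of Fkbp4 and the E2 points of Stip1 lie below both untreated points. Of the 6 probe sets, 0 passed the threshold in limma.

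Stip1 encodes Hop, which bridges Hsp70 and Hsp90. Its 1 probe set, 1415909_at, read 9.63 and 9.69 in untreated cells, 9.75 and 9.57 with Dex, 9.57 and 9.45 with E2, and 9.65 and 9.69 with both. The E2 arrays were lower than the untreated arrays, by a mean of 0.15 that did not pass (-0.15 ± 0.0945; limma, adjusted p = 0.947), and the Dex arrays lay on both sides of them.

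Hspa8 encodes the constitutive cytosolic Hsp70. Its brightest probe set, 1455789_x_at, read 13.81 and 13.84 in untreated cells, 13.82 and 13.80 with Dex, 13.76 and 13.82 with E2, and 13.82 and 13.73 with both. All 4 groups overlapped or touched. The suffix x, here and on 1420623_x_at, marks probes that match more than 1 sequence. The next 2 probe sets, 1420623_x_at and 1420622_a_at, differed from untreated by -0.11 to 0.02 in the 3 treatments. These 3 lie near the top of the scale, where the highest probe set of an array reads 14.37 to 14.40; whether the signal saturates there was not tested. The fourth, 1431182_at, is the dimmest and gave the widest spread within a group, 7.82 and 7.20 on the Dex+E2 arrays. Its difference between Dex+E2 and E2 was -0.25. It was -0.57 without Dex+E2 replicate 1, where it passed (limma, adjusted p = 0.0313), and 0.06 without Dex+E2 replicate 2.

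Bag1, whose product releases clients from Hsp70, read 11.81 and 11.96 in untreated cells, 11.84 and 11.83 with Dex, 11.82 and 11.89 with E2, and 11.81 and 11.85 with both. Every treated array lay within the untreated range to 2 decimals. Stub1, which encodes CHIP, read 11.39 and 11.58 on its brighter probe set, 1416580_a_at, in untreated cells, 11.53 and 11.46 with Dex, 11.37 and 11.31 with E2, and 11.49 and 11.53 with both. Only the E2 arrays lay below the untreated range, by a mean difference of -0.15 ± 0.0929 (limma, adjusted p = 0.947). The other Stub1 probe set, 1434412_x_at, was -0.11 from untreated with E2, 0.05 with Dex and -0.0096 with both.

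Around these genes the wider cycle was followed in 3 lists. Of 26 other Hsp90-side genes (Hsp90 paralogs and co-chaperones, 25 of them measured with 53 probe sets), 2 probe sets of 1 gene were called higher for Dex, 0 lower and 51 not called; the list median was 0.0405 against 0.0014 for all probe sets. For E2, limma called 0 of 53, and with both hormones 1 rose and 0 fell. In the mean Dex effect 2 probe sets of the same gene were called higher and 0 lower, against 1.37% of all called. At an unadjusted p under 0.05 there were 4 for Dex, 5 for E2 and 7 for both. Of 23 other FKBP and cyclophilin isomerases (19 measured, 38 probe sets), 0 passed in any of the 8 comparisons in limma, with 0, 5 and 1 probe sets at an unadjusted p under 0.05 for Dex, E2 and both. Of 25 other Hsp70-side genes (24 measured, 63 probe sets), 0 passed in any comparison, with 1, 5 and 4 at an unadjusted p under 0.05, and 12 for Dex+E2 against E2. Over all probe sets the shares at an unadjusted p under 0.05 were 5.69% for Dex, 5.42% for E2, 8.16% for both and 11.8% for Dex+E2 against E2, and the shares called were 0.924%, 0.0355%, 0.844% and 0.335%. The medians with Dex were -0.0072 and -0.0209 for the isomerase and Hsp70-side lists. Single probe sets spread wider. With E2 the differences ran from -0.13 to 0.73 log2 units in the isomerase list and from -0.18 to 0.38 in the Hsp70-side list. For Dex+E2 against E2 they ran from -0.38 to 0.17 and from -0.56 to 0.21.

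The gene that rose was Cdc37l1, which encodes a relative of the kinase co-chaperone Cdc37 that binds Hsp90. Its brightest probe set, 1417740_at, read 8.40 and 8.28 in untreated cells, 9.16 and 9.24 with Dex, 8.50 and 8.55 with E2, and 8.87 and 8.79 with both. As for Fkbp5, the Dex arrays were highest and the Dex+E2 arrays lay between them and the E2 arrays. The difference with Dex was 0.86 ± 0.0882 log2 units, 1.82-fold (limma, adjusted p = 0.000691), and 0.78 ± 0.0937 on 1433574_at (adjusted p = 0.00224). With both hormones it was 0.49 ± 0.0882 on 1417740_at (adjusted p = 0.0302) and 0.40 on 1433574_at (adjusted p = 0.118). That call held in 5 of 16 other settings and was lost, among others, without each of the 8 arrays in turn, with adjusted p from 0.0511 to 0.32, and with the replicate number as a block (adjusted p = 0.0605). Between Dex+E2 and Dex the difference was -0.37 on both probe sets (adjusted p = 0.670 and 0.771). Against E2 alone the Dex+E2 differences were 0.31 and 0.15 and, unlike those of Fkbp5, did not pass (limma, adjusted p = 0.263 and 0.534). In the mean Dex effect both probe sets passed, at 0.59 ± 0.0623 on 1417740_at and 0.46 ± 0.0662 on 1433574_at (limma, adjusted p = 0.000686 and 0.00489). The other 4 Cdc37l1 probe sets, all dimmer, were 0.14 to 0.41 above untreated with Dex and did not pass. On 1440886_at the Dex+E2 mean of 5.59 lay above the Dex mean of 5.47, and on the other dimmer probe sets it lay below.

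The genes whose pattern over the 8 arrays was most like that of Fkbp5 probe set 1416125_at were found among 299 probe sets of other genes whose standard deviation over the arrays was at least 0.378, which is 50% of that of Fkbp5. Adm, the vasodilator peptide adrenomedullin, had a Pearson correlation of 0.9975, Fam117b 0.9973, Ppm1d, a p53-induced phosphatase, 0.9944, Bcl2l1, which encodes the survival protein Bcl-xL, 0.9939, Dusp1, a MAP kinase phosphatase, 0.9933, and Zfp623, a zinc finger gene, 0.9924. The 8 points fall into 2 sets, with and without Dex, so the correlation mostly reads that difference. With Dex the 6 genes were 2.31, 1.12, 1.15, 1.47, 2.54 and 1.02 log2 units above untreated in the same order, with E2 0.15, 0.17, 0.11, 0.13, 0.24 and 0.07, and with both 1.84, 0.89, 0.92, 1.34, 2.23 and 0.83. In all 6 the mean with both hormones was below that with Dex, with differences from -0.47 to -0.13. With all 8 arrays in the fit none of these passed (limma, adjusted p from 0.996 to 0.997). Over the other settings that of Adm ran from -0.79 to -0.16. The -0.79 was without Dex+E2 replicate 1, which leaves only the Dex+E2 array that stood apart. Fkbp5 shared that order, which the choice by correlation favours.

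**Figure D4:**
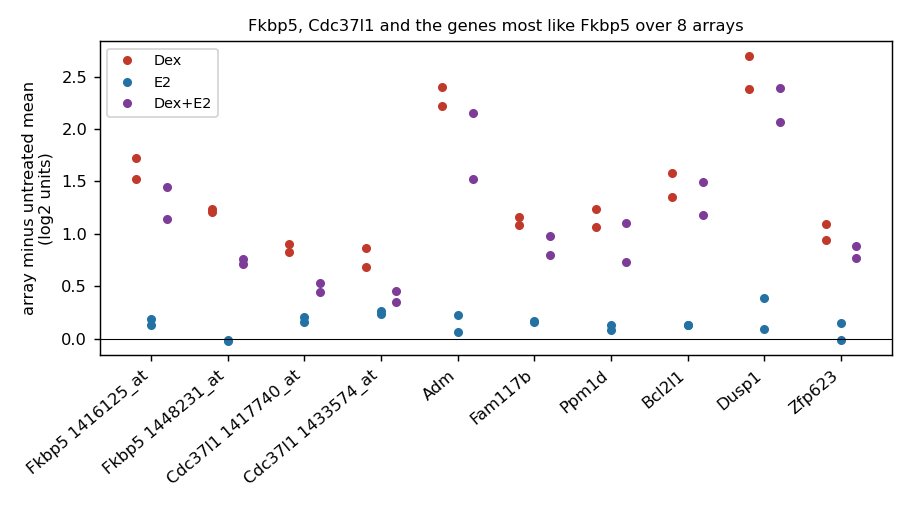
Each treated array minus the untreated mean, in log2 units, for 2 Fkbp5 probe sets, 2 Cdc37l1 probe sets and the 6 genes most correlated with Fkbp5 probe set 1416125_at; points are arrays, coloured by treatment. Dex+E2 points lie below Dex points for both Fkbp5 and both Cdc37l1 probe sets and overlap them for Ppm1d, Bcl2l1 and Dusp1.

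Of the receptors that the cycle serves, Nr3c1, which encodes the glucocorticoid receptor, has 6 probe sets and Esr1, which encodes estrogen receptor alpha, has 3. Nr3c1 probe set 1421867_at read 9.72 and 9.63 in untreated cells and 9.11 and 9.16 with Dex, -0.54 ± 0.0840 (limma, adjusted p = 0.0113), opposite in direction to Fkbp5. That call was lost without each of the 4 arrays compared (adjusted p 0.0742 to 0.183) and with the mean of the probe sets of the gene (adjusted p = 0.853). The brightest Nr3c1 probe set, 1460303_at, was -0.47 (adjusted p = 0.179), 1457635_s_at was -0.47 (adjusted p = 0.750), and 1453860_s_at was 0.43 (adjusted p = 0.859). In the mean Dex effect 1421867_at was lower by -0.45 ± 0.0594 (limma, adjusted p = 0.00299), a call that held in 13 of 14 other settings. There 1460303_at was lower too, at -0.46 ± 0.0852 (adjusted p = 0.0245), a call that held in 7 of 14. The Esr1 probe sets differed from untreated by 0.03 to 0.09 with Dex and did not pass. Whether these probe sets read the receptor transgenes was not tested.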

How the data were processed

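Gene expression was measured on 8 Affymetrix mouse arrays, 2 in each of 4 groups, grouped by sample title. The deposited values are on the log2 scale. The submitters' processing notes name RMA (robust multi-array averaging: background subtraction, quantile normalization, summary per probe set) and Affymetrix Expression Console, with no version. RMA compresses changes of dim probe sets. Array medians ran from 5.58 to 5.66. The number of arrays limits the precision.

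After leaving out 64 control probe sets, all 45037 probe sets were fitted with limma 3.58.1 (R 4.3.3) as 4 group means on 8 arrays, with 4 residual and 6.29 prior degrees of freedom. The Benjamini-Hochberg adjustment ran over all probe sets in each of 8 comparisons, and adjusted p under 0.05 was called. Errors after ± are standard errors. Of the probe sets tested, 34945 have 1 symbol in the platform annotation, 932 several and 9160 none. The fit was tested on simulated arrays. The members and gene lists were chosen with earlier results of these data known. Named genes were all members, list genes past the threshold, Nr3c1, Esr1 and the 6 genes most correlated with Fkbp5. List genes without a single-symbol probe set are not analysed here. Alternatives were the prior, the probe sets tested, a filter at the median level, array medians subtracted, 1 value per gene, fitting only 2 groups, the replicate number as a block and leaving out each array.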

Additional observations from a re-analysis of the deposited data

How the results depend on the processing

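The Fkbp5 calls for Dex and for Dex+E2 against untreated, and for the mean Dex effect, held in every alternative run, on both brighter probe sets. On 1416125_at the Dex difference ran from 0.95 (the mean of all 3 probe sets) to 1.72, and with both hormones from 0.67 to 1.45. Of 2167 member values under alternatives, 2163 kept their side of the threshold, 3 lost the call and 1 gained it; these 4 are given beside the results above. Most of the 2167 values belong to probe sets that were not called in any comparison, so this total says little about how firm the Fkbp5 calls are. With 1 value per gene (the brightest probe set or the mean) the 2 Fkbp5 calls become 1 by construction in each of the 4 comparisons with calls. With only the 2 groups fitted, 0 probe sets of these genes passed for Dex+E2 against E2, and without single arrays 1 (without E2 replicate 1) to 3 (without Dex+E2 replicate 1, with Hspa8 1431182_at lower) did.

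The count over all probe sets moved more. For Dex it was 416, 267 with the brightest probe set and 269 with the mean of each gene, both over fewer features, and 170 (without Dex replicate 1) to 498 (without either Dex+E2 array) without single arrays. For E2 it was 16, 46 with a trended and robust prior, and 3 (without either untreated array or E2 replicate 2) to 37 (without E2 replicate 1). For Dex+E2 it was 380, 237 with gene means, 222 with 2 groups fitted, and 169 (without untreated replicate 1) to 1436 (without Dex+E2 replicate 1). For Dex+E2 against E2 it was 151, 100 with gene means, 16 with 2 groups fitted, and 30 (without E2 replicate 1) to 1974 (without Dex+E2 replicate 1). For Dex+E2 against Dex it was 3, 5 with a trended and robust prior, 0 above the median level, 0 with 2 groups fitted, and 0 to 168 (without Dex+E2 replicate 1). For the interaction it was 1, 6 with that prior, and 0 to 29 (without Dex+E2 replicate 1). For the mean Dex effect it was 618, 404 with the brightest probe set, 365 with gene means, and 349 (without Dex replicate 1) to 1666 (without Dex+E2 replicate 1). For the mean E2 effect it was 24, 76 with that prior, and 3 to 71 (without Dex+E2 replicate 1). The cause was not tested.

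Same-numbered arrays of untreated, Dex and E2 deviated together (correlations of deviations 0.160, 0.312 and 0.235), while those of Dex+E2 went against all 3 (-0.248, -0.105 and -0.194). No pairing over all 4 groups was therefore assumed. With the replicate block the count for Dex was 372, the member counts were 2, 0, 2, 2, 0, 0, 2 and 0 in the 8 comparisons, as without it, and the Dex difference of Fkbp5 on 1416125_at was 1.62 (limma, adjusted p = 0.000256).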
